A study of Mus musculus with 6 samples.

Results

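The 9 genes described here encode 6 two-pore domain potassium channels (Kcnk1, Kcnk2, Kcnk3, Kcnk5, Kcnk9 and Kcnk10) and 3 hyperpolarization-activated cyclic nucleotide-gated (HCN) channels (Hcn2, Hcn3 and Hcn4). They were taken by gene name from a table of 55536 named entries, as channels discussed as targets of volatile anaesthetics, and all 9 were found. Total RNA of the fetal cerebral cortex of C57BL/6 mice at E14.5 was sequenced in a Sevo group (3 samples, whose dams breathed 2.5% sevoflurane in 97.5% O2 for 6 h) and in a Ctr group (3 samples, whose dams breathed 100% O2 for 6 h). Both groups thus breathed nearly pure oxygen, and neither breathed room air. Each sample is whole tissue, the number of fetuses or litters behind a sample is not stated in the sources used here, and p-values therefore measure only the spread between these samples.

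Two-pore channels carry the background potassium current that sets the resting potential of a cell. Each subunit holds a pair of pore loops, and the channels assemble as dimers. HCN channels open when the membrane becomes more negative, pass an inward current of sodium and potassium, and are eased open by cyclic AMP. Volatile anaesthetics open several two-pore channels, above all those of the TREK and TASK types, which draws the membrane away from firing, and they inhibit HCN currents. These are effects on channel proteins. What was measured here is the amount of their RNA at the end of exposure.

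The deposited values are TPM, a transcript abundance. They take transcript length into account and add up to one total in each sample, so levels of different genes can be compared within a sample. TPM keep no read depth, so no counting error is given. A gene whose 6 samples averaged 1 TPM or more was called expressed. The Sevo and Ctr groups were compared as log2(TPM + 1) by limma over all 14518 named genes that reached this mean, with Benjamini-Hochberg adjustment over all of them. All log2 fold changes are on that scale, which understates the change of genes at a few TPM. With 3 samples against 3, a two-sided exact permutation test cannot give a p below 0.1.

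The samples differed in the RNA of markers of neighbouring tissue and of interneurons, and the cause was not tested. The cortical transcription factors Emx1, Emx2, Lhx2, Tbr1 and Neurod6 were all present, with Emx1 from 125 to 143 TPM in the Sevo samples and from 132 to 143 TPM in the Ctr samples, and the 6 markers of thalamus and hindbrain summed to between 11.1 and 11.3 TPM in the Sevo samples and between 11.2 and 18.7 TPM in the Ctr samples, nearly all of it Lhx9 and Tcf7l2. Hoxb3, a hindbrain gene of that list, was listed at 0 in every sample. The 8 markers of meninges and choroid plexus summed to 27.5, 15.1 and 6.46 TPM in Sevo replicates 1, 2 and 3, against 4.54, 814 and 8.18 TPM in Ctr replicates 1, 2 and 3. Ttr, the choroid plexus gene of transthyretin, made up most of the sum in Ctr replicate 2, and Kl, another choroid plexus gene, stayed at or below 0.06 TPM in all 6 samples. The 9 markers of the ganglionic eminence and interneurons summed to 69.0, 202 and 151 TPM in the Sevo samples, against 102, 109 and 125 TPM in the Ctr samples. The differences of the 7 expressed channel genes were therefore also computed without each sample, and without Sevo replicate 2 and Ctr replicate 2 together, the second of these chosen after the marker values were seen. In whole tissue, fewer cells of a type and less RNA per cell cannot be told apart.

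Of the 9 channel genes, 7 were expressed at E14.5, and all 7 stood above 1 TPM in every one of the 6 samples. Hcn3, Kcnk2 and Kcnk10 were the most abundant, at between 8.33 and 21.6 TPM in single samples. Hcn4, Kcnk5, Kcnk1 and Hcn2 were lower, at between 1.03 and 6.41 TPM. Kcnk3 reached 1 TPM in 1 sample and Kcnk9 in none. None of the 9 was an abundant transcript. Hcn3, the highest, lay at percentile 48.3 of the genes tested by mean TPM, Kcnk2 at 41.2, Kcnk10 at 38.5, Kcnk5 at 21.2, Hcn4 at 20.2, Kcnk1 at 17.0 and Hcn2 at 8.25.

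**Figure D1:**
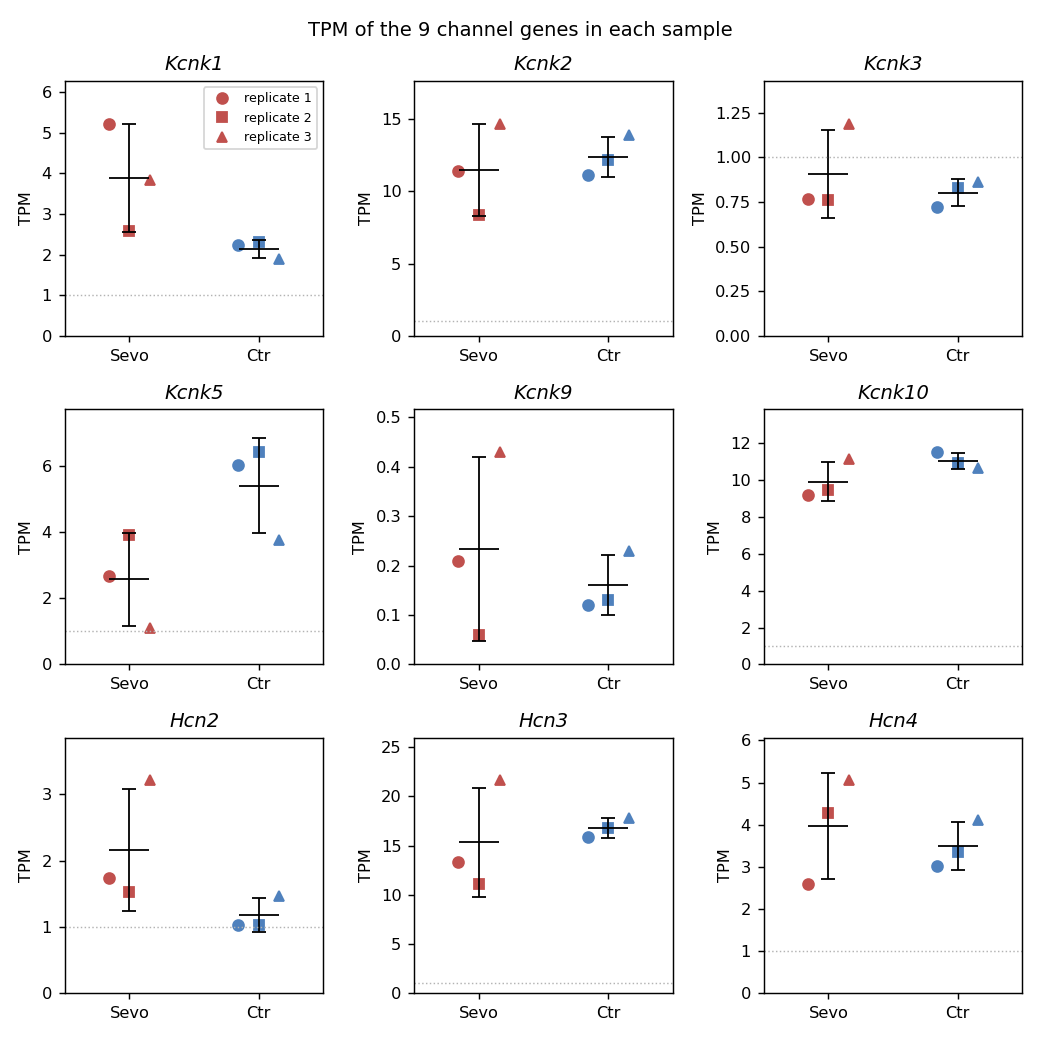
TPM of each of the 9 channel genes (y axes, linear from 0, scaled per gene) in the 3 Sevo and the 3 Ctr samples, with symbols for the replicates, the mean as a bar and the SD as whiskers. The dotted line marks 1 TPM. The groups lie apart for Kcnk1 and Hcn2 only, and the Sevo samples are more spread than the Ctr samples for most genes.

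The order of the levels was nearly the same in both groups. In the Sevo group Hcn3 averaged 15.3 ± 5.6 TPM, Kcnk2 11.5 ± 3.2 and Kcnk10 9.91 ± 1.06 TPM, followed by Hcn4 at 3.97 ± 1.26, Kcnk1 at 3.89 ± 1.32, Kcnk5 at 2.57 ± 1.41, Hcn2 at 2.16 ± 0.92, Kcnk3 at 0.907 ± 0.245 and Kcnk9 at 0.233 ± 0.186 TPM (SD, n = 3). Within this group the sample ranges of Hcn3 and Kcnk2 overlapped, as did those of Kcnk2 and Kcnk10, and the 4 genes from Hcn4 to Hcn2 each overlapped with the next. In the Ctr group Hcn3 averaged 16.8 ± 1.0 TPM, Kcnk2 12.4 ± 1.4 and Kcnk10 11.03 ± 0.45 TPM, followed by Kcnk5 at 5.40 ± 1.43, Hcn4 at 3.49 ± 0.57, Kcnk1 at 2.15 ± 0.22, Hcn2 at 1.18 ± 0.25, Kcnk3 at 0.803 ± 0.074 and Kcnk9 at 0.16 ± 0.061 TPM (SD, n = 3). Here only Kcnk2 with Kcnk10, and Kcnk5 with Hcn4, were neighbours whose ranges overlapped. Kcnk5 ranked 6 of the 9 in the Sevo group and 4 in the Ctr group.

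**Figure D2:**
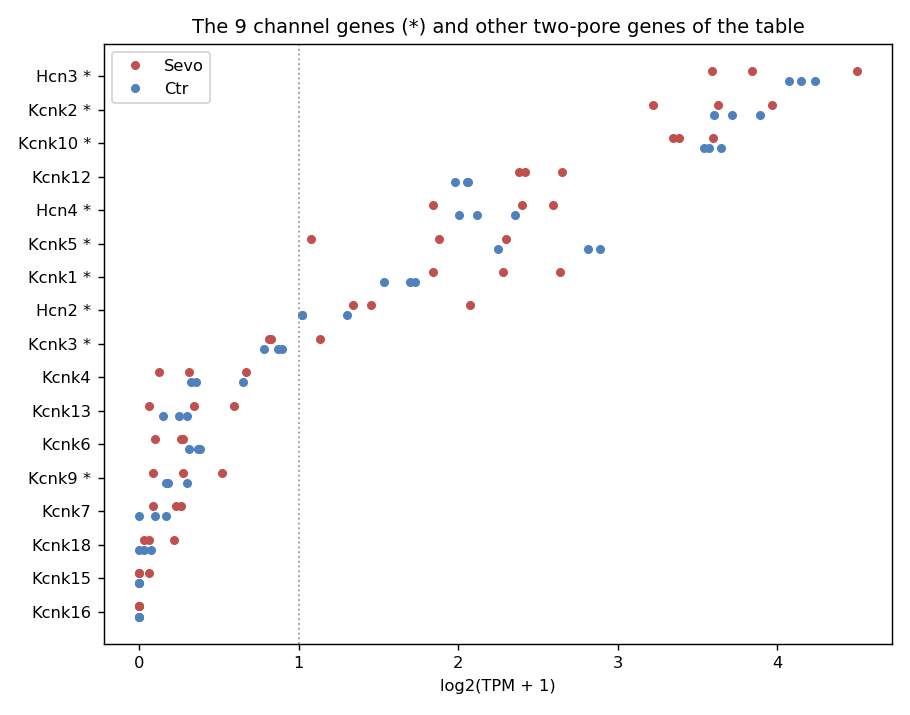
Level of the 9 channel genes and of the other two-pore genes of the table as log2(TPM + 1) (x axis) in each Sevo and each Ctr sample (points), ordered by mean. Asterisks mark the 9 genes described, and the dotted line marks 1 TPM. Of the genes without an asterisk, Kcnk12 alone lies beyond that line.

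None of the 7 channel genes tested passed an adjusted p of 0.05 from limma, in either direction, with adjusted p from 0.2045 to 0.818. Over all 14518 genes 1 passed, or 0.00689%. At an unadjusted p under 0.05 from limma, Kcnk1 was higher and Kcnk5 lower in the Sevo group, 2 of the 7, where 19.4% of all genes tested did so (6.56% higher, 12.8% lower). The groups did not overlap for 2 of the 7, Kcnk1 and Hcn2, both higher in every Sevo sample, beside 27.1% of all genes tested (9.43% higher, 17.7% lower). The 7 genes had 3 positive and 4 negative log2 fold changes with a median of -0.13, and all genes tested had a median of -0.06. With higher and lower genes pooled, both counts lie near the share of all genes. Taken by direction, 2 of the 7 were higher without overlap and 0 lower (9.43% and 17.7% of all genes tested), and this split was not tested. With a sample left out, the count at an unadjusted p under 0.05 changed, as did the share over all genes. It was 0 without Ctr replicate 1 or Ctr replicate 2 (11.8% and 13.2% of all genes tested). It was 1 without Sevo replicate 1, Sevo replicate 3 or Ctr replicate 3 (20.3%, 19.1% and 11.8%), and 3 without Sevo replicate 2 (23.2%). The 1 gene was Kcnk5 without Sevo replicate 1 or Ctr replicate 3, but Hcn3, which was lower, without Sevo replicate 3. The differences themselves were 0.62 and 0.64 for Kcnk1 and -0.82 and -0.78 for Kcnk5 without Ctr replicate 1 and without Ctr replicate 2. The count that did not overlap was 3 without Sevo replicate 1, Sevo replicate 2 or Ctr replicate 3 (39.3%, 41.9% and 33.6% of all genes tested) and 4 without Sevo replicate 3 (38% of all genes tested), since fewer samples separate more easily. With each sample centred on its median, Hcn2 also passed an unadjusted p of 0.05, which made 3 (17.8% of all genes tested).

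**Figure D3:**
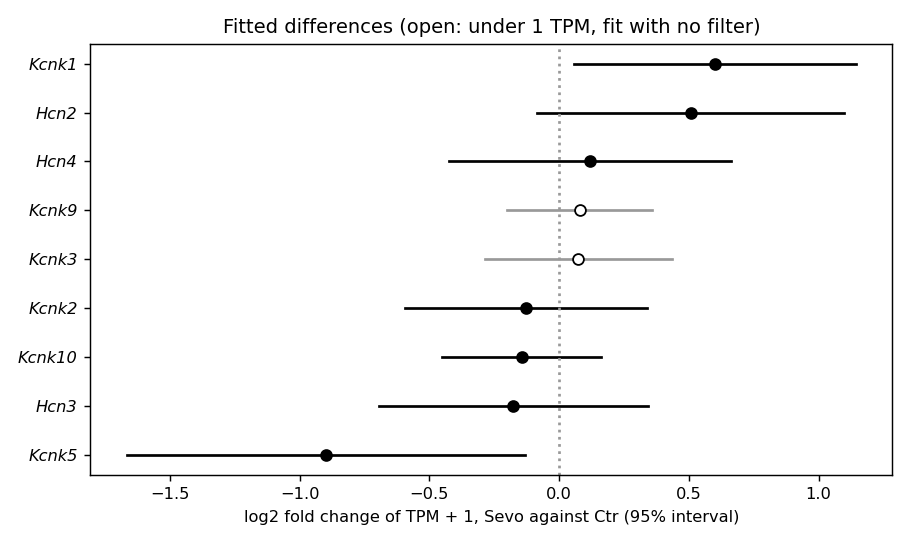
Log2 fold change of TPM + 1, Sevo against Ctr (x axis), of each channel gene with its 95% interval from limma (lines). Filled points are the 7 genes in the test over 14518 genes, and open points are Kcnk3 and Kcnk9, fitted with no filter on low values. The intervals of Kcnk1 and Kcnk5 leave out 0 before adjustment, and the others span it.

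Kcnk1 (ENSMUSG00000033998, GRCm38 chromosome 8, 125995170 to 126030685) encodes TWIK-1, a weakly conducting two-pore channel. It had 5.23, 2.59 and 3.85 TPM in Sevo replicates 1, 2 and 3, against 2.24, 2.31 and 1.90 TPM in the Ctr replicates. Every Sevo sample was above every Ctr sample, with the lowest Sevo sample close to the highest Ctr sample, and the ratio of the means was 1.81. The log2 fold change was 0.60 (standard error 0.23, 95% interval 0.06 to 1.14, adjusted p = 0.221, limma), and the exact permutation p was 0.1 (two-sided). It stayed positive in all 15 alternatives, from 0.41 without Sevo replicate 1 to 0.84 without Sevo replicate 2 and Ctr replicate 2 together. The sum of markers of Cajal-Retzius cells, the early neurons of the cortical surface, was also highest in Sevo replicate 1. It was 189, 129 and 150.1 TPM in the Sevo samples, against 139.5, 139 and 145 TPM in the Ctr samples. Most of it was Reln, at 160.5 TPM in Sevo replicate 1. Lhx5 of this list was highest in Ctr replicate 2, at 3.1 TPM against 2.72 TPM in Sevo replicate 1. Of these 4 markers none passed the test, and their part in the Kcnk1 values was not tested.

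Kcnk5 (ENSMUSG00000023243, chromosome 14, 20140057 to 20181809) encodes TASK-2, a two-pore channel sensitive to extracellular pH. It had 2.68, 3.92 and 1.11 TPM in the Sevo samples, against 6.02, 6.41 and 3.76 TPM in the Ctr samples. Sevo replicate 2 lay just above Ctr replicate 3, so the groups overlapped, and the ratio of the means was 0.476. The log2 fold change was -0.90 (standard error 0.33, 95% interval -1.67 to -0.13, adjusted p = 0.2045, limma), the widest difference among the 7, with an exact permutation p of 0.2 (two-sided). Sevo replicate 3 set much of its size, and without that sample it was -0.56. It was negative in all 15 alternatives, down to -1.21. The summed TPM of 4 markers of intermediate progenitors (Eomes, Neurog2, Btg2 and Insm1) was also lowest in Sevo replicate 3. The sum was 548, 499 and 335 TPM in the Sevo samples, against 536, 531.5 and 565 TPM in the Ctr samples. Insm1 of this list was lowest in Ctr replicate 1, at 72.6 TPM against 79.8 TPM in Sevo replicate 3. The mean log2 level of 8 radial glial markers was lower in every Sevo sample, at 6.92, 7.03 and 6.76, against 7.07, 7.08 and 7.13 in the Ctr samples. Of these 8, Sox2 and Slc1a3 went the other way, with log2 fold changes of 0.28 and 0.06. None of these 12 markers passed over all genes, and their part in the Kcnk5 values was not tested.

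Hcn2 (ENSMUSG00000020331, chromosome 10, 79716634 to 79736108) encodes an HCN subunit that responds strongly to cyclic AMP and is widespread in the mature brain. It had 1.74, 1.53 and 3.21 TPM in the Sevo samples, against 1.03, 1.03 and 1.47 TPM in the Ctr samples. The groups did not overlap, but the gap between 1.53 TPM in Sevo replicate 2 and 1.47 TPM in Ctr replicate 3 was narrow. The ratio of the means was 1.84 and the log2 fold change 0.51 (standard error 0.25, 95% interval -0.08 to 1.10, adjusted p = 0.321, limma; two-sided exact permutation p = 0.1). It stayed positive in all 15 alternatives, and was 0.28 without Sevo replicate 3. This sample was also the highest in the other HCN genes and in the summed TPM of 7 neuron markers, at 2395, 2562 and 2943 TPM in the Sevo samples, against 2700, 2391 and 2594 TPM in the Ctr samples, whose part was not tested.

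The 250 bases upstream of the RefSeq starts of these genes are shown because the 3 had the widest differences of the 7, in both directions. They are from RefSeq on GRCm38.p6, 5′ to 3′ on the strand of the gene. Capitals mark matches to the GC box GGGCGG on either strand. The CRE TGACGTCA, the E-box CACGTG and CCAAT were also searched on both strands and had no match in the 3.
Kcnk1, chr8:125994852-125995101, plus strand: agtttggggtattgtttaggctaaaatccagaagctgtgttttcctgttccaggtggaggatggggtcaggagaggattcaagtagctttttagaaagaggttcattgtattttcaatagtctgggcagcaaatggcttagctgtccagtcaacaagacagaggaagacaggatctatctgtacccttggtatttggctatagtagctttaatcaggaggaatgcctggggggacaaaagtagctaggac
Kcnk5, chr14:20181783-20182032, minus strand: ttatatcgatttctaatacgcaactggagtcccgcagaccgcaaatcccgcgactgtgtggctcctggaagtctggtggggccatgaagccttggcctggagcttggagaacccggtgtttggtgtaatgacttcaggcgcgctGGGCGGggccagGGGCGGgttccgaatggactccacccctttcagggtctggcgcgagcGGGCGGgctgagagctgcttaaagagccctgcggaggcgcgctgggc
Hcn2, chr10:79716384-79716633, plus strand: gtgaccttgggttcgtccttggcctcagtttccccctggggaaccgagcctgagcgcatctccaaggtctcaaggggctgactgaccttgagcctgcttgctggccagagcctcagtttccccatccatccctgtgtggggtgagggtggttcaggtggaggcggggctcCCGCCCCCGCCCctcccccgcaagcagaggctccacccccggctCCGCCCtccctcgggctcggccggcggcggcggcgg
Kcnk5 and Hcn2 have 3 GC box matches each, a GC content of 62.8% and 70.4%, and 19 and 16 CpG. Kcnk1 has no match, a GC content of 44.4% and no CpG. Of 32851 such windows in the RefSeq table, 32.7% hold a GC box, 1.55% the CRE, 6.02% the E-box and 33.8% CCAAT, and their median GC content was 52.4%. The RefSeq start of Kcnk1 lies upstream of the start of its GENCODE transcripts. Among the 9 genes, 6 had an entry in that table.

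Kcnk2 and Kcnk10 encode TREK-1 and TREK-2, closely related channels opened by stretch, fatty acids and volatile anaesthetics. Kcnk2 (ENSMUSG00000037624, chromosome 1, 189207930 to 189402273) had 11.4, 8.33 and 14.7 TPM in the Sevo samples, against 11.2, 12.1 and 13.9 TPM in the Ctr samples. The Sevo samples held both the highest and the lowest value. Its log2 fold change was -0.13 (standard error 0.20, 95% interval -0.60 to 0.34, adjusted p = 0.762, limma). It turned to 0.06 without Sevo replicate 2, the sample with the highest sum of ganglionic eminence and interneuron markers. Without Sevo replicate 2 and Ctr replicate 2 together it was 0.05. Kcnk10 (ENSMUSG00000033854, chromosome 12, 98429437 to 98578310) had 9.17, 9.44 and 11.1 TPM in the Sevo samples, against 11.5, 10.9 and 10.6 TPM in the Ctr samples. It was the tightest of the expressed channel genes, and its log2 fold change was -0.14 (standard error 0.13, 95% interval -0.45 to 0.16, adjusted p = 0.588, limma). It stayed negative in all 16 alternatives, between -0.22 and -0.05. Together Kcnk2 and Kcnk10 made up 69.8%, 70.8% and 79.7% of the summed TPM of the 6 two-pore genes in the Sevo samples, against 71.4%, 70.4% and 78.4% in the Ctr samples, so the TREK genes were the main two-pore transcripts in every sample. The sum itself was 29.0 ± 3.7 TPM in the Sevo group and 31.9 ± 0.8 TPM in the Ctr group (SD, n = 3).

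Kcnk3 and Kcnk9 encode TASK-1 and TASK-3, acid-sensitive channels that volatile anaesthetics also open. Kcnk3 (ENSMUSG00000049265, chromosome 5, 30588170 to 30625271) had 0.77, 0.76 and 1.19 TPM in the Sevo samples, against 0.72, 0.83 and 0.86 TPM in the Ctr samples. Kcnk9 (ENSMUSG00000036760, chromosome 15, 72501089 to 72546340) had 0.21, 0.06 and 0.43 TPM in the Sevo samples, against 0.12, 0.13 and 0.23 TPM in the Ctr samples. Both were too low for the main test, and the groups overlapped for both. Fitted with no filter on low values, the log2 fold changes were 0.07 for Kcnk3 (95% interval -0.29 to 0.43, adjusted p = 0.854, limma) and 0.08 for Kcnk9 (95% interval -0.20 to 0.36, adjusted p = 0.791, limma). At these levels the scale of log2(TPM + 1) is compressed, so the narrow intervals do not exclude a large relative change. In every sample Kcnk3 and Kcnk9 were lower than each of the TREK genes.

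Hcn3 and Hcn4 completed the HCN genes. Hcn3 (ENSMUSG00000028051, chromosome 3, 89146074 to 89160196), whose subunit responds little to cyclic AMP, had 13.3, 11.1 and 21.6 TPM in the Sevo samples, against 15.8, 16.8 and 17.8 TPM in the Ctr samples. Sevo replicate 3 was above all Ctr samples and the other Sevo samples were below them. The log2 fold change was -0.18 (standard error 0.22, 95% interval -0.69 to 0.34, adjusted p = 0.705, limma). It was -0.44 without Sevo replicate 3, 0.02 without Sevo replicate 2, and also 0.02 without Sevo replicate 2 and Ctr replicate 2 together. Hcn4 (ENSMUSG00000032338, chromosome 9, 58823412 to 58863175), the pacemaker subunit of the sinoatrial node, had 2.58, 4.27 and 5.05 TPM in the Sevo samples, against 3.02, 3.34 and 4.12 TPM in the Ctr samples. Its log2 fold change was 0.12 (standard error 0.23, 95% interval -0.43 to 0.66, adjusted p = 0.818, limma), at 0.34 without Sevo replicate 1 and -0.04 without Sevo replicate 3. The direction of Kcnk2, Hcn3 and Hcn4 thus hung on single Sevo samples.

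**Figure D4:**
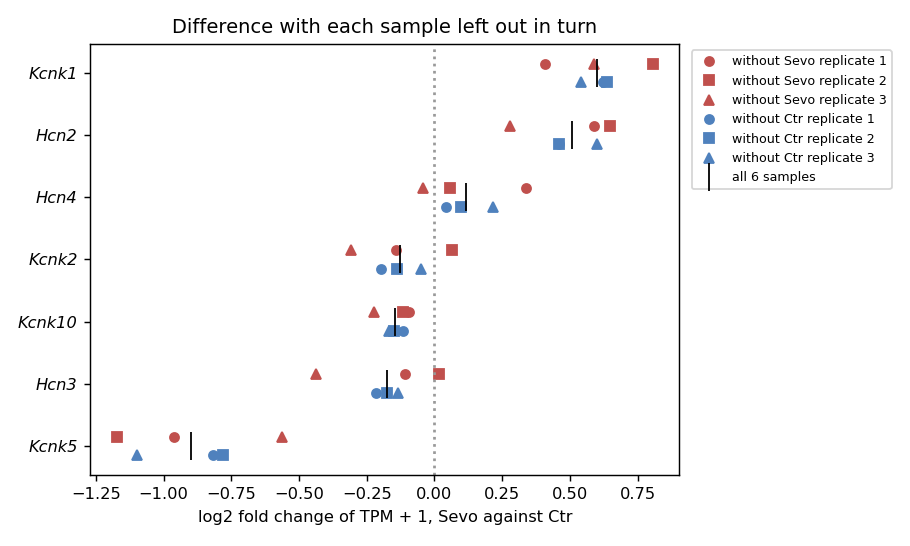
Log2 fold change of TPM + 1, Sevo against Ctr (x axis), of the 7 expressed channel genes with all 6 samples (vertical bars) and with each sample left out in turn (points, one per sample left out). The points of Kcnk1 and Hcn2 all lie above 0, those of Kcnk5 and Kcnk10 all lie below 0, and Kcnk2, Hcn3 and Hcn4 have points on both sides.

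Shares within each family do not depend on a sample's scaling factor. Hcn2 took 9.86%, 9.07% and 10.7% of the summed TPM of Hcn2, Hcn3 and Hcn4 in the Sevo samples, against 5.18%, 4.87% and 6.27% in the Ctr samples. The groups did not overlap, and the 3 Sevo samples were closer to each other in this share than in the TPM of Hcn2. Hcn3 took 75.5%, 65.6% and 72.4% in the Sevo samples, against 79.6%, 79.3% and 76.1% in the Ctr samples, and was the main HCN transcript in every sample. Kcnk1 took 17.8%, 10.3% and 11.9% of the summed TPM of the two-pore genes in the Sevo samples, against 7.05%, 7.06% and 6.08% in the Ctr samples, again with no overlap. Kcnk5 took 9.10%, 15.6% and 3.43% in the Sevo samples, against 18.9%, 19.6% and 12% in the Ctr samples. The ratio of Kcnk1 to Kcnk5 in TPM was 1.95, 0.661 and 3.47 in the Sevo samples, against 0.372, 0.360 and 0.505 in the Ctr samples. These shares were looked at after the TPM of each gene, and no test was made on them.

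**Figure D5:**
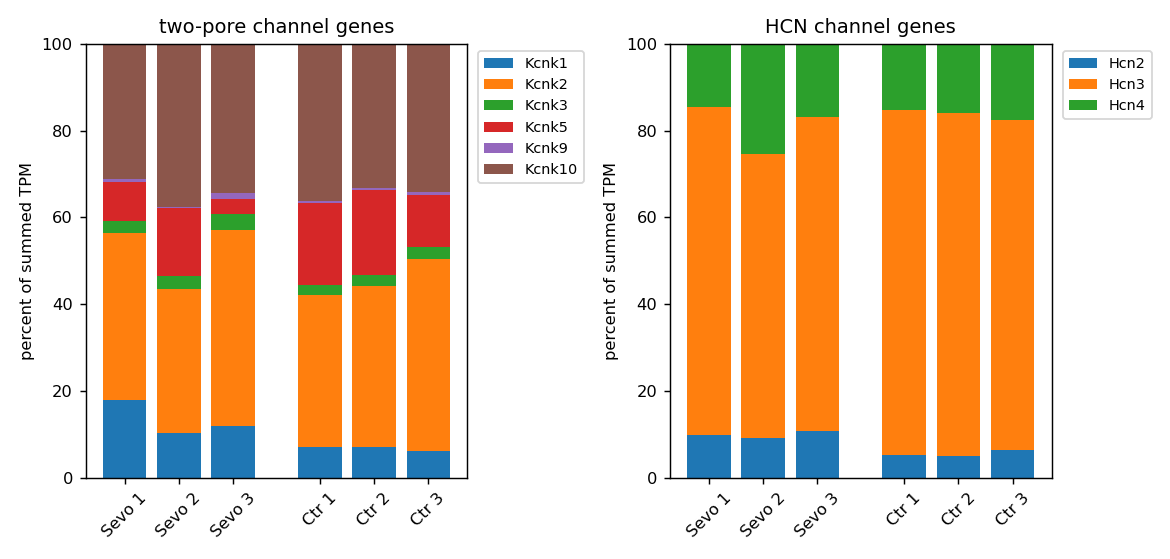
Percent of the summed TPM of the 6 two-pore genes (left) and the 3 HCN genes (right) taken by each gene (stacked bars, y axis) in each Sevo and each Ctr sample. The Kcnk1 segment is 10.3% to 17.8% in the Sevo samples and 6.08% to 7.06% in the Ctr samples, and the Hcn2 segment is 9.07% to 10.7% in the Sevo samples and 4.87% to 6.27% in the Ctr samples.

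Of the other two-pore genes, Kcnk12 was the one that averaged 1 TPM or more. Kcnk12 (ENSMUSG00000050138, chromosome 17, 87745801 to 87797994) encodes THIK-2, a two-pore subunit that is silent or nearly so when expressed alone. It had 5.29, 4.34 and 4.2 TPM in the Sevo samples, against 3.17, 3.15 and 2.94 TPM in the Ctr samples. Every Sevo sample was above every Ctr sample, and the log2 fold change, 0.45 (standard error 0.16, 95% interval 0.07 to 0.83, adjusted p = 0.200, limma), stayed between 0.37 and 0.57 in all 15 alternatives. Kcnk4, Kcnk6, Kcnk7, Kcnk13, Kcnk15 and Kcnk18 stayed at or below 0.59 TPM in every sample, and Kcnk16 was listed at 0 in all 6.

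Genes that regulate these channels did not pass the test either. Of 44 such genes found in the table, 39 were tested, and none passed an adjusted p of 0.05 from limma, while 5 were lower and 0 higher at an unadjusted p under 0.05 (12.8% and 6.56% of all genes tested), with a median log2 fold change of -0.05 beside -0.06 over all genes. With each sample centred on its median, Mapk14 alone of the 5 (Mapk14, Ywhae, Ywhaz, Senp1 and Wnk1) passed that unadjusted p, and Ywhaz was at -0.08. Among regulators of HCN channels, Mapk14, the kinase p38 alpha, had 30.8 ± 1.9 TPM in the Sevo group and 40.0 ± 1.0 TPM in the Ctr group (SD, n = 3), with a log2 fold change of -0.37 (adjusted p = 0.125, limma). The abundant members of that list were the actin crosslinker Flna at -0.09, the ubiquitin ligase Nedd4l at 0.05 and the kinase Src at 0.01. Among regulators of two-pore channels, the 14-3-3 proteins bind TASK channels and help them to the cell surface. Ywhae, the most abundant 14-3-3 gene, had 792 ± 50 TPM in the Sevo group and 953 ± 51 TPM in the Ctr group (SD, n = 3), with a log2 fold change of -0.27 (adjusted p = 0.152, limma). Ywhaz was at -0.18 and Ywhaq at -0.05, the SUMO protease Senp1 at -0.35 and the kinase Wnk1 at -0.23. Among 14 tested genes of cyclic AMP synthesis, breakdown and response, which bear on HCN gating, no gene reached an unadjusted p of 0.05. The abundant subunits of protein kinase A, Prkar1a, Prkar2b and Prkacb, had log2 fold changes of 0.05, 0.15 and 0.02. Of the 14, the groups did not overlap for 1 higher and 1 lower gene (9.43% and 17.7% of all genes tested). These were Adcy1 at 0.40 (adjusted p = 0.2595, limma) and Pde10a at -0.23 (adjusted p = 0.344, limma). Kcne2, an accessory subunit of HCN channels that is also made by the choroid plexus, was singled out after its values were seen. It had 0.69, 0.92 and 0.37 TPM in the Sevo samples, against 0.04, 14.5 and 0.08 TPM in the Ctr samples, and its high sample was Ctr replicate 2, the one with the Ttr signal.

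Among all other genes tested, those most like the most abundant channel of each family over the 6 samples were Cox10, Pxk and Pomgnt1 for Kcnk2 (Pearson r of log2(TPM + 1) of 0.995, 0.987 and 0.987) and Anks6, Snx32 and Anapc11 for Hcn3 (0.998, 0.998 and 0.990). Values this high were not rare over 6 samples, and 44 genes for Kcnk2 and 49 for Hcn3 had an r over 0.95.

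The reads of these channel genes were mostly distinct. In GENCODE M21, no window of 50 bases in the transcripts of Kcnk1, Kcnk2, Kcnk5, Kcnk10, Hcn2, Hcn3 or Hcn4 occurred in the transcripts of another gene, and 0.255% of those of Kcnk3 and 0.00816% of those of Kcnk9 did. Exons of 4 of the 9 overlapped those of a gene on the other strand, whose reads cannot be told apart without strand information. The overlap was 711 bases of Hcn3 with Pklr, 604 bases of Kcnk2 with A430027H14Rik, 229 bases of Kcnk3 with Gm9899 and 179 bases of Kcnk1 with Gm45875. Of these partners, A430027H14Rik had the highest level, at a mean of 4.57 TPM in the Sevo group and 3.29 TPM in the Ctr group, and the part of this in the Kcnk2 values was not tested.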

How the data were processed

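Total RNA of fetal cortex was sequenced in 3 Sevo and 3 Ctr samples, grouped by their labels. The authors deposited TPM per gene and sample, rounded to 2 decimals. Which program counted the reads was not given in the sources used here. Bowtie 0.12.2, edgeR and the builds mm10 and mm8 appear in the submitters' processing notes, without a stated role. TPM hold no depth, so counting precision is unknown.

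Of 56198 entries, 662 had no name and were left out, and 27 names turned into dates were restored by identifier. The 14518 named genes that averaged 1 TPM or more were tested on log2(TPM + 1) with limma 3.58.1 in R 4.3.3 (eBayes with a trend, two-sided, Benjamini-Hochberg), checked first on simulated data. Channel genes were read from that fit. Positions came from GENCODE M21 (GRCm38), matched by identifier for 99.8% of named entries. Other work used Python 3.11.15, pandas 2.3.3, numpy 2.4.6 and matplotlib 3.10.9.

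The channel genes and lists were chosen with earlier results of these data known. All 9 channel genes were named, family genes at 1 TPM, regulators at an unadjusted p under 0.05 or among the 3 most abundant of their list, and the 3 genes most correlated with the most abundant channel of each family. Kcne2, Adcy1 and Pde10a were named outside this rule. Alternatives were pseudocounts of 0.1 and 0.01, no filter, a minimum mean of 5 TPM, quantile normalization, median centring, TPM without haemoglobin and mitochondrial genes, a replicate block, no trend, and each sample left out. Leaving out both Sevo replicate 2 and Ctr replicate 2 was chosen after seeing the data. A comparison of protein sequences was not made. Some items are not reported here.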

Additional observations from a re-analysis of the deposited data

How the results depend on the processing

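No channel gene, other family gene or regulator passed an adjusted p of 0.05 from limma under any alternative run. The number of channel genes at an unadjusted p under 0.05 was 2, beside 19.4% of all genes tested. It became 3 with median centring, 1 with no filter and 1 with quantile normalization (17.8%, 12.2% and 17.5% of all genes tested). With a minimum mean of 5 TPM, where 3 channel genes were expressed and tested, it was 0 (21.6%). The number whose groups did not overlap was 2 (27.1% of all genes tested). It became 1 with quantile normalization (25.2%) and 0 with that minimum (29.6%). With single samples left out, these counts ran from 0 to 3 and from 2 to 4 (11.8% to 23.2% and 33.4% to 41.9% of all genes tested), and the count over all genes at an adjusted p under 0.05, which was 1, ran from 1 to 9. It was 0 without Sevo replicate 2 and Ctr replicate 2 together.

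With single samples left out, the log2 fold change of Kcnk2 ran from -0.310 (without Sevo replicate 3) to 0.0641 (without Sevo replicate 2), that of Hcn3 from -0.437 to 0.0164 (without the same samples) and that of Hcn4 from -0.0415 (without Sevo replicate 3) to 0.337 (without Sevo replicate 1). Without Sevo replicate 2 and Ctr replicate 2 together, Kcnk2 was at 0.0530 and Hcn3 at 0.0159. The cause was not tested. At an unadjusted p under 0.05, 953 genes were higher and 1859 lower. Median centring gave 1689 higher and 892 lower, and quantile normalization gave 1306 higher and 1240 lower, yet Kcnk1 (0.70 and 0.58), Kcnk5 (-0.80 and -0.90) and Hcn2 (0.60 and 0.48) kept their directions.

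Same-numbered samples did not deviate together (correlations of -0.02, 0.02 and 0.01). With 3 samples per group, such correlations cannot exclude a pairing. With the replicate number as a block, 2 channel genes passed an unadjusted p of 0.05 (18.9% of all genes tested) and none an adjusted one. The count over all genes at an adjusted p under 0.05 stayed at 1. The standard error of Kcnk5 was 0.205 with that block and 0.33 without, and that of Kcnk1 was 0.24 with it and 0.23 without. The unadjusted p of Kcnk5 was 0.0039 with the block and 0.0272 without, and its adjusted p with the block was 0.155 (limma). Reads per sample are unknown, which limits what can be said of Kcnk3 and Kcnk9 at under 1 TPM.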
